A study of Mus musculus with 5 samples.

Results

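The variable exons of the T cell receptor alpha (TRA) chain, the TRAV segments, were described in CD4 single positive (CD4 SP) thymocytes from 2 genotypes, wild type (WT) and *Tet2/3* DKO. A segment is the first V gene listed for a clonotype, which is 1 row of the TRA table and stands for 1 CDR3 nucleotide sequence. Every TRAV segment found in the 5 libraries was a member. These were 102 of the 106 V segments in the TRA tables, in 22 families named by the number after TRAV, and the other 4 were TRDV segments. Usage was the share of productive clonotypes, those whose CDR3 has no stop codon and no frameshift, and each clonotype was counted once. The question was whether the 2 genotypes used the segments, and the positions along the locus, to different degrees.

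The TRA locus is assembled in CD4+CD8+ thymocytes by joining 1 TRAV segment to 1 TRAJ segment. First joins tend to take TRAV segments near the TRAJ segments and TRAJ segments near the TRAV segments, which carry high TRAJ numbers. Later joins on the same allele replace the first with a more distant TRAV and a TRAJ segment of lower number, until a receptor is positively selected. In C57BL/6 mice the central part of the TRAV array is present in near-identical copies, whose names carry a D, an N or no letter.

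The libraries came from 3 WT mice and 2 mice of the genotype *Tet2*-/- *Tet3*flx/flx CD4cre (*Tet2/3* DKO), all C57BL/6J, with 1 library per mouse. The *Tet2/3* DKO mice lack *Tet2* in every cell, while a Cre under *Cd4* control removes *Tet3* in developing thymocytes and the T cells they give rise to. Thymocytes low in CD24 were sorted as CD4+, TCRβ+, CD8- and negative for the αGalCer-loaded CD1d tetramer that binds iNKT cells, and full-length cDNA was sequenced with SMART-seq. Mice of both genotypes were 21 to 30 days old.

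Reads on genes ranged from 17607089 to 27267031 per library, and productive TRA clonotypes numbered 6845, 5797 and 6948 in WT replicates 1 to 3 and 5648 and 3548 in *Tet2/3* DKO replicates 1 and 2. Most clonotypes rested on 1 read, from 69.4% to 76.8% per library. *Tet3* stood at 44.2, 45.6 and 52.8 CPM (gene counts scaled to library size) in WT and at 19.7 and 13.1 in *Tet2/3* DKO libraries (log2 fold change −1.50, SE 0.18, edgeR adjusted p = 0.00121). *Tet2* was not lower in *Tet2/3* DKO libraries, at 52.9, 54.2 and 58.1 against 90.0 and 58.5 CPM, and whether its reads come from the deleted part cannot be seen in counts per gene. The library labelled *Tet2/3* DKO replicate 1, given as male, had 744 *Xist* counts and 7 counts on 4 Y-linked genes. The library labelled WT replicate 1, given as female, had 0 *Xist* counts and 6821 Y-linked counts, so 2 libraries go against their sex labels, and results are also given without each of them. The study describes the mice of these libraries as male throughout. The counts of WT replicate 1 fit that description and those of *Tet2/3* DKO replicate 1 do not. Of the CD4 SP markers, *Cd4*, *Ccr7* and *Zbtb7b*, which encodes Th-POK, passed the test as lower in *Tet2/3* DKO cells, and all 7 were expressed. Over all 13525 genes tested 3.92% passed, 327 as higher and 203 as lower. In such bulk samples fewer cells of a type and less RNA per cell cannot be told apart.

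The copies are hard to tell apart because their sequences are nearly the same. Between the annotated members of 40 sets of copies, the last 60 bases were identical in 42 of 102 pairs, with a median of 1 differing base. Of the 98 pairs in which a CDR3 start was found in both copies, 74 shared all bases that enter the CDR3. Bases were compared position by position from the annotated end, without alignment. A copy annotated 1 base shorter, such as TRAV11D beside TRAV11, thus counts as different, so these numbers of matching pairs may be too low. The sequences below are the 3′ ends of the segments on which the comparisons turn, with their copies, taken from GENCODE M21 transcripts (mm10, plus strand), and capitals mark the bases from the conserved cysteine codon on, which open the CDR3. TRAV7N-6 lies at chr14:53324632-53325208, TRAV13-2 at chr14:53634829-53635399, TRAV8-1 at chr14:53469756-53470232, TRAV16D-DV11 at chr14:53047287-53047821 and TRAV16N at chr14:53351028-53351621, each a V gene of the T cell receptor, and the windows shown are the coding ends of these exons.
TRAV7N-6: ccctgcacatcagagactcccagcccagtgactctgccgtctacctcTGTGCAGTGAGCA
TRAV7-6: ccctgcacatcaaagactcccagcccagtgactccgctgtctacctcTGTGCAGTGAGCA
TRAV13-2: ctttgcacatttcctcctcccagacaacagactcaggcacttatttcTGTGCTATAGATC
TRAV13D-2: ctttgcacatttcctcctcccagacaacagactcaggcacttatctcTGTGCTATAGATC
TRAV8-1: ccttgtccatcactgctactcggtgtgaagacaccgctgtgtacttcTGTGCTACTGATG
TRAV8D-1: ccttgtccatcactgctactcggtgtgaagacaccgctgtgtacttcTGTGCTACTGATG
TRAV16D-DV11: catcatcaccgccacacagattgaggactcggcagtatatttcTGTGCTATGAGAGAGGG
TRAV16N: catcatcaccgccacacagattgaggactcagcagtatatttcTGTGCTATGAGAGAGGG

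TRAV7N-6 and TRAV7-6 differ at 3 of these 60 bases, TRAV13-2 and TRAV13D-2 at 1, TRAV16D-DV11 and TRAV16N at 1, and TRAV8-1 and TRAV8D-1 at 0. In each library 57.3% to 60.9% of productive clonotypes had a best V score shared by several segments, and the first one listed was then a copy without a letter in 70.2% to 73.0%. Only 1.40% to 1.66% were tied between families. A family is thus read with little doubt, while the segment, and with it the position on the chromosome, was open for more than every second clonotype.

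Along the locus, the 102 segments were ranked from 1 (TRAV1, 1726 kb from the nearest TRAJ segment) to 102 (TRAV23, 177.3 kb from it). They fell into 4 blocks, in this order: 7 segments at the 5′ end, 33 D copies, 21 N copies, and 41 segments that are plain copies or lie 3′ of them. The annotation gives 97 of them as functional V genes and 5 as pseudogenes. Usage was uneven, and the mean WT share ran from 0% to 6.05% with a median of 0.591%. The 6 most used segments made up 27.5% of WT clonotypes and the 20 most used 59.5%.

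**Figure D1:**
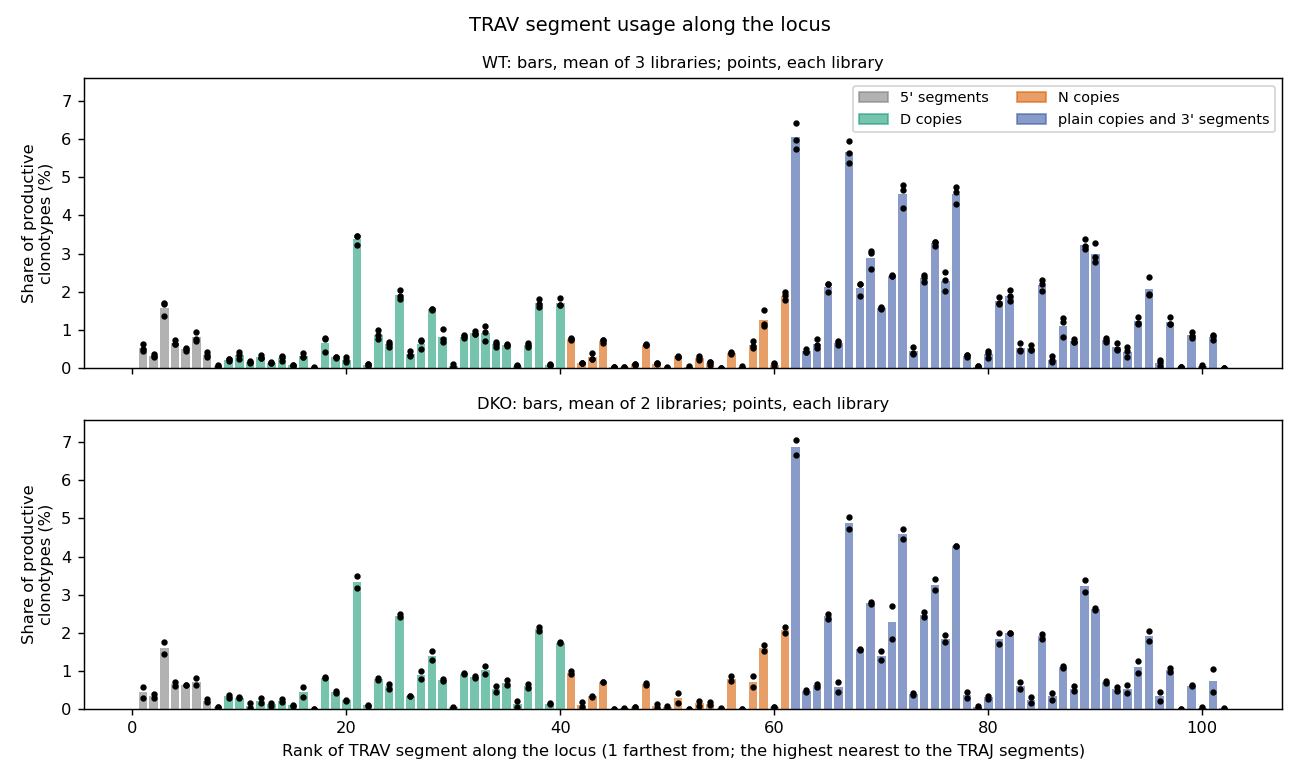
Share of productive clonotypes (%) of each of the 102 TRAV segments by its rank along the locus, in 3 WT libraries (top) and 2 *Tet2/3* DKO libraries (bottom), with bars for the mean, points for each library and colours for the 4 blocks of segments. The highest bars in both genotypes lie among the plain copies, led by TRAV7-2 with a mean of 6.05% in WT.

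TRAV7-2 led in every library, at 6.43%, 5.74% and 5.97% in WT and at 7.06% and 6.68% in *Tet2/3* DKO. TRAV7-4 was next in WT, at 5.64%, 5.38% and 5.96%, and stood at 5.03% and 4.74% in *Tet2/3* DKO. For both segments the genotypes did not overlap, yet neither passed the test (edgeR adjusted p = 0.0955 for each). With 3 WT and 2 *Tet2/3* DKO libraries, the mean and SD were 4.56% ± 0.22 and 4.28% ± 0.012 for TRAV14-1, the next in order. They were 4.55% ± 0.31 and 4.60% ± 0.19 for TRAV6-6, 3.38% ± 0.13 and 3.33% ± 0.23 for TRAV14D-1, and 3.27% ± 0.051 and 3.26% ± 0.19 for TRAV12-1. Apart from TRAV14-1, whose *Tet2/3* DKO values lay just below those of WT, these overlapped between genotypes, and none of the 4 passed the test. At most 25.8% of the clonotypes of any of the 6 had a best V score of their own, so these leading shares may include clonotypes of the copies.

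Usage was reproducible between mice of 1 genotype. The chi-square of segment counts per degree of freedom, which is 1 where 2 libraries differ only by counting error, was 0.801 to 1.02 over the 3 pairs of WT libraries and 1.02 for the *Tet2/3* DKO pair. Over the 6 pairs of a WT and a *Tet2/3* DKO library it was 1.27 to 1.51. The libraries were nevertheless separate samples, since over all genes the same ratio was at least 8.24 for every pair.

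Of the 102 segments 78 passed the filter on low counts and were tested with edgeR's quasi-likelihood test, together with 2 TRDV segments. The other 24 had at most 10 clonotypes in any library. At an adjusted p-value of 0.05, 3 segments, or 3.75% of the 80 V segments tested, differed between the genotypes. TRAV7N-6 was higher in *Tet2/3* DKO cells, and TRAV13-2 and TRAV8-1 were lower. The median log2 fold change over the V segments tested was −0.01, and 12 had an unadjusted p under 0.05.

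TRAV7N-6, an N copy of the largest family, was found in 24, 23 and 29 clonotypes of the WT libraries and in 48 and 26 of the *Tet2/3* DKO libraries. These were 0.351%, 0.397% and 0.417% of clonotypes in WT and 0.850% and 0.733% in *Tet2/3* DKO. Both *Tet2/3* DKO shares lay above all WT shares, with a log2 fold change of 1.05 (SE 0.22, edgeR adjusted p = 0.000361). All of its clonotypes had a best V score of their own, and among the clonotypes with 1 best V segment it was again called (log2 fold change 1.12, edgeR adjusted p = 0.00706). Its plain copy TRAV7-6, which is distinguished at the 3 bases noted above, was at 0.467%, 0.656% and 0.504% in WT and at 0.567% and 0.479% in *Tet2/3* DKO, with overlap. TRAV7N-6 was also the segment whose WT clonotypes had the lowest mean TRAJ number of the 77 segments with at least 30 WT clonotypes, at 19.8, and it stood at 20.6 in *Tet2/3* DKO.

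TRAV13-2, a plain copy, was found in 32, 35 and 32 WT clonotypes and in 17 and 5 of *Tet2/3* DKO. Its share was 0.467%, 0.604% and 0.461% in WT and 0.301% and 0.141% in *Tet2/3* DKO, without overlap (log2 fold change −1.07, SE 0.31, edgeR adjusted p = 0.0277). TRAV13D-2, which differs from it at 1 of the 60 bases, was at 1.55%, 1.54% and 1.51% in WT and at 1.27% and 1.52% in *Tet2/3* DKO, so that the lower *Tet2/3* DKO library was below WT and the other within it. TRAV8-1 was at 2.19%, 2.21% and 1.89% in WT and at 1.54% and 1.58% in *Tet2/3* DKO, again without overlap (log2 fold change −0.42, SE 0.13, edgeR adjusted p = 0.0277). The last 60 bases of TRAV8-1 and TRAV8D-1 are the same, and only 17.8% of TRAV8-1 clonotypes had a best V score of their own. Among the clonotypes with 1 best V segment neither was called, with a log2 fold change of −0.93 for TRAV13-2 (edgeR adjusted p = 0.171) and of −1.08 for TRAV8-1 (edgeR adjusted p = 0.147).

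Leaving out *Tet2/3* DKO replicate 1 or replicate 2 left 0 calls, with 3 WT libraries against 1 whose spread was taken from WT, and leaving out WT replicate 1 left 3 calls, 2 of them among those named. Leaving out WT replicate 2 left 1 call, and leaving out WT replicate 3 left 4, 2 of them among those named. TRAV7N-6 stayed called without any single WT library, TRAV13-2 only without WT replicate 1, and TRAV8-1 only without WT replicate 3. The log2 fold change without 1 library stayed between 0.91 and 1.13 for TRAV7N-6 and between −0.50 and −0.39 for TRAV8-1. That of TRAV13-2 went to −1.83 without *Tet2/3* DKO replicate 1 and to −0.74 without replicate 2. DESeq2 called 0 segments, with a log2 fold change of 1.03 and an adjusted p of 0.288 for TRAV7N-6. In clonotypes of at least 2 reads the log2 fold change of TRAV7N-6 was 0.50 (edgeR adjusted p = 0.686), and that of TRAV8-1 turned to 0.079 (edgeR adjusted p = 0.959). TRAV13-2 did not pass the filter on low counts in this setting.

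**Figure D2:**
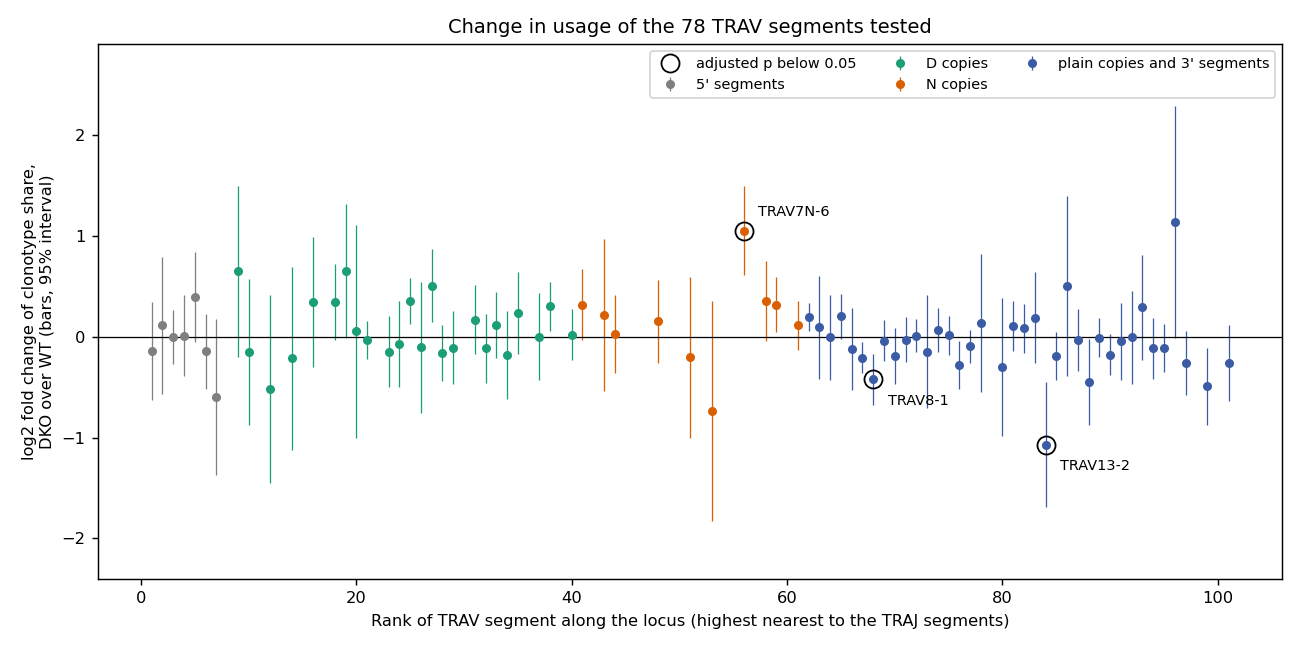
Log2 fold change of clonotype share in *Tet2/3* DKO over WT with its 95% interval, for the 78 TRAV segments tested, by rank along the locus and coloured by block. Rings mark TRAV7N-6, TRAV13-2 and TRAV8-1, whose adjusted p was below 0.05. Above 0 lie 8 of the 10 N copies tested, 13 of the 24 D copies, 13 of the 37 plain copies and 3′ segments, and 3 of the 7 segments at the 5′ end.

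By position, 16 segments had both *Tet2/3* DKO shares above all WT shares, which is 20% of the V segments tested, and 14 (17.5%) had both below. Among the 10 N copies tested, 4 were above and 1 below, with a median log2 fold change of 0.18. Among the 24 D copies 8 were above and 1 below, with a median of 0.01. Among the 37 plain copies and 3′ segments 3 were above and 11 below, with a median of −0.04. The 7 segments at the 5′ end had 1 in each direction and a median of −0.01.

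The locus was also cut into 3 stretches of 34 segments each. The stretch nearest the TRAJ segments held 47.9%, 49.8% and 47.9% of TRAV clonotypes in WT against 46.0% and 46.5% in *Tet2/3* DKO. The middle stretch held 30.2%, 29.6% and 30.7% in WT against 32.0% and 31.4% in *Tet2/3* DKO. The farthest stretch held 21.8%, 20.6% and 21.4% in WT and 22.0% and 22.1% in *Tet2/3* DKO. None of the 3 overlapped between genotypes, with 2.28 percentage points less in the nearest stretch in *Tet2/3* DKO and 1.54 more in the middle one. The exact two-sided permutation test gave p = 0.1 for each of these 2 shares, which is the smallest p that 3 against 2 libraries allow, and p = 0.2 for the farthest stretch. Over the 37 measures of the locus compared in this way no Benjamini-Hochberg adjusted value was below 0.206, so that none could pass 0.05.

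Positions are firmer for clonotypes whose best V segments all lie in 1 block, 41.6%, 42.5% and 43.3% of WT and 40.0% and 41.0% of *Tet2/3* DKO clonotypes. Among these, N copies took 17.2%, 16.5% and 17.9% in WT and 21.01% and 20.97% in *Tet2/3* DKO. D copies took 12.2%, 12.3% and 12.4% in WT and 13.1% and 13.98% in *Tet2/3* DKO. Plain copies and 3′ segments took 62.9%, 64.6% and 63.2% in WT against 58.2% and 59.0% in *Tet2/3* DKO. The genotypes did not overlap in any of the 3 (p = 0.1 each, exact permutation test, adjusted 0.206), by 3.78 percentage points in the N copies and −4.97 in the plain copies and 3′ segments. In clonotypes of at least 2 reads, the smaller part of each library, these differences were 0.829 and −1.38. The 5′ segments overlapped, at 6.53% to 7.5999% against 6.02% and 7.73%. The shares of the blocks were planned as values with no test, and their tests were added after the data had been seen. The placed share was itself lower in *Tet2/3* DKO libraries, and its part in these differences was not tested.

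**Figure D3:**
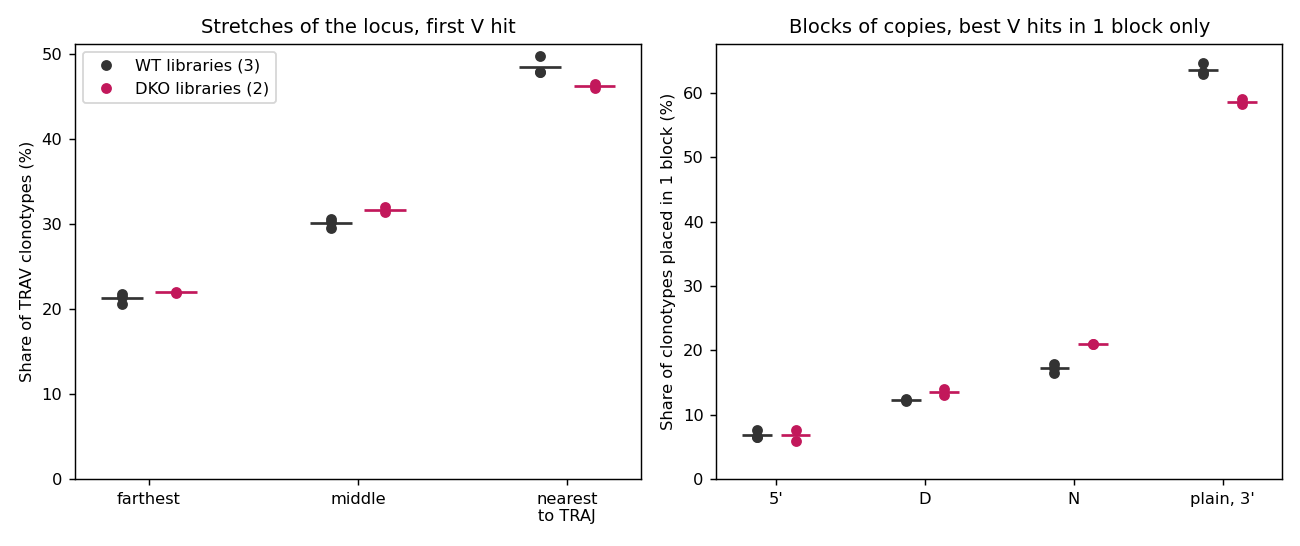
Left, share of TRAV clonotypes (%) in each of the 3 stretches of the locus by first V segment. Right, share of clonotypes placed in 1 block (%) for the 4 blocks, with points for libraries and lines for group means, in which the *Tet2/3* DKO libraries sit above WT for D and N copies and below WT for plain copies and 3′ segments.

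The position of a TRAV segment went with the TRAJ segment it was joined to. Over the 77 segments with at least 30 WT clonotypes, rank and mean TRAJ number rose together (Spearman's rho 0.746), and over the 66 of them with at least 30 *Tet2/3* DKO clonotypes rho was 0.784 in those libraries. These are descriptions across segments, which share libraries and tied clonotypes. Among the 77 segments the highest mean TRAJ number in WT belonged to TRAV19, near the 3′ end, at 49.5.

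In *Tet2/3* DKO cells the TRAJ number was lower in each stretch. In the farthest it was 23.8, 24.3 and 23.9 in WT against 21.1 and 22.1 in *Tet2/3* DKO. In the middle stretch it was 26.0, 26.5 and 25.8 in WT against 23.5 and 24.3 in *Tet2/3* DKO. In the nearest it was 33.3, 33.8 and 33.7 in WT against 31.1 and 31.6 in *Tet2/3* DKO. The genotypes did not overlap, with differences of −2.39, −2.20 and −2.28 TRAJ numbers (p = 0.1 each, exact permutation test, adjusted 0.206). The 7 single-copy segments of the 3′ end, TRAV3-4 to TRAV23, overlapped instead, at 47.1, 47.7 and 47.7 in WT and 47.0 and 47.6 in *Tet2/3* DKO.

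**Figure D4:**
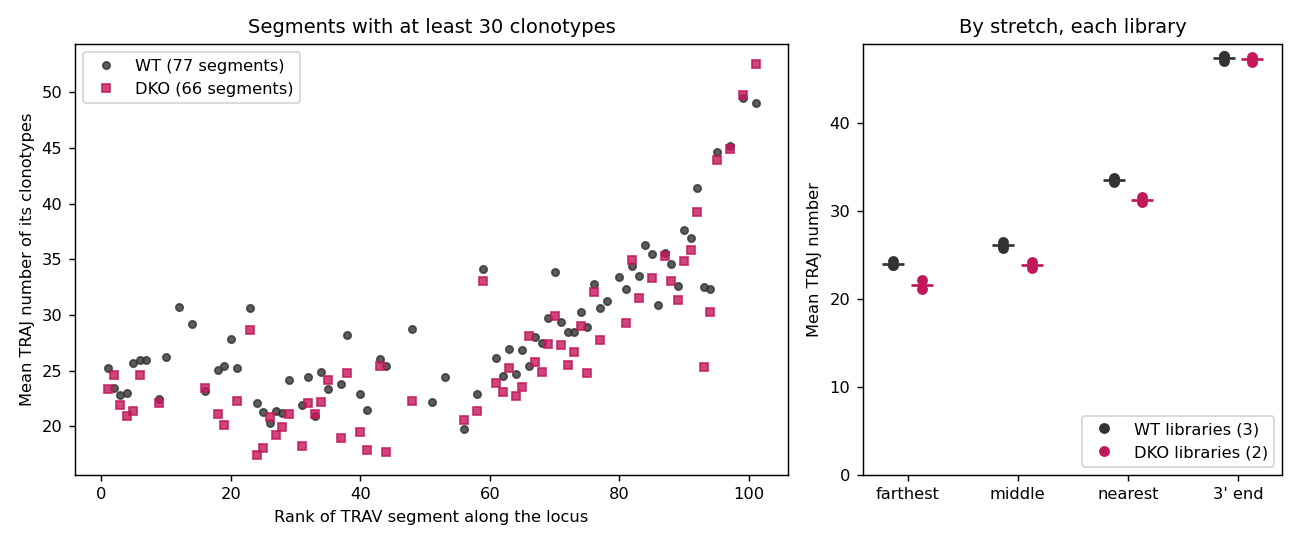
Left, mean TRAJ number of the clonotypes of each TRAV segment by its rank, for 77 segments in WT and 66 in *Tet2/3* DKO libraries. Right, mean TRAJ number of each library in the 3 stretches and in the 3′ single-copy end, where the *Tet2/3* DKO libraries lie below WT in each stretch and overlap with WT at the 3′ end.

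The share of clonotypes with a TRAJ number of 31 or higher was 47.9%, 49.97% and 47.8% in WT and 39.1% and 40.3% in *Tet2/3* DKO. Split by this number, the nearest stretch held 61.7%, 63.2% and 62.4% of WT and 63.7% and 63.4% of *Tet2/3* DKO clonotypes with TRAJ numbers of 31 or higher. It held 35.1%, 36.2% and 34.3% of WT and 34.6% and 34.8% of *Tet2/3* DKO clonotypes with TRAJ numbers of 30 or lower. At the higher TRAJ numbers both *Tet2/3* DKO libraries thus lay above all WT libraries, by 1.12 percentage points on average (p = 0.2, exact permutation test), and at the lower numbers the genotypes overlapped. Plain copies and 3′ segments took 43.9%, 46.2% and 44.1% of placed WT against 39.6% and 41.6% of placed *Tet2/3* DKO clonotypes with TRAJ numbers of 30 or lower, without overlap, and overlapped between genotypes at higher numbers. N copies took 26.6%, 24.2% and 25.3% of placed WT and 30.1% and 29.6% of placed *Tet2/3* DKO clonotypes in the part of lower TRAJ numbers, without overlap, and overlapped between genotypes in the other part.

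Families, which are little affected by ties between copies, were then compared. Of the 22 families 19 passed the filter, and 3 of the 21 V families tested (14.3%, 2 TRDV families included) were called by edgeR. Both *Tet2/3* DKO shares lay above all WT shares in 3 V families (14.3%) and below them in 7 (33.3%). TRAV12 and TRAV16 were higher in *Tet2/3* DKO cells and TRAV13 was lower. The 3 families not tested, TRAV18, TRAV20 and TRAV23, had at most 4 clonotypes in a library.

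TRAV12 held 8.53%, 8.52% and 8.43% of WT and 9.77% and 9.61% of *Tet2/3* DKO clonotypes (log2 fold change 0.19, SE 0.05, edgeR adjusted p = 0.00452). The WT values lay within 0.1 percentage points of each other and the *Tet2/3* DKO values more than 1 above them. Within the family the D copies TRAV12D-1, TRAV12D-2 and TRAV12D-3 lay above WT in both *Tet2/3* DKO libraries, and TRAV12-1, TRAV12-2 and TRAV12-3 overlapped. TRAV12N-2 was found in 0, 0 and 1 WT clonotypes and in 4 and 1 *Tet2/3* DKO clonotypes, too few for the test. The last 60 bases of TRAV12D-2 and TRAV12N-2 are the same, and at most 1.17% of the clonotypes of any of the 3 D copies had a best V score of their own. With tied clonotypes split equally between their segments TRAV12N-2 was called (log2 fold change 0.40, edgeR adjusted p = 0.0416), so the copy behind the higher family share is not settled. TRAV12D-2, the most used D copy of the family, went from 1.88%, 1.79% and 2.03% in WT to 2.41% and 2.48% in *Tet2/3* DKO (log2 fold change 0.35, edgeR adjusted p = 0.0525).

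TRAV16 held 2.75%, 2.92% and 3.18% of WT and 3.56% and 3.80% of *Tet2/3* DKO clonotypes (log2 fold change 0.31, SE 0.10, edgeR adjusted p = 0.0152). Both of its segments found, TRAV16D-DV11 and TRAV16N, lay above WT, at 2.09% ± 0.075 against 1.69% ± 0.11 and at 1.59% ± 0.099 against 1.26% ± 0.22 (SD, n = 2 and 3). Trav16, the plain copy, was a V segment of no clonotype although its gene had 97 to 201 counts per library, and it differs from TRAV16N at 1 of the last 60 bases. Whether its clonotypes were given to the other copies or are missing was not tested. TRAV13 held 5.95%, 6.35% and 5.87% of WT and 5.24% and 4.99% of *Tet2/3* DKO clonotypes (log2 fold change −0.23, SE 0.07, edgeR adjusted p = 0.0121). Here TRAV13-1, at 2.29%, 2.52% and 2.01% in WT and 1.93% and 1.75% in *Tet2/3* DKO, and TRAV13-2 lay below WT, and TRAV13D-4 above it, from 0.0584% to 0.0864% in WT and at 0.159% and 0.113% in *Tet2/3* DKO. TRAV13N-1 also lay below WT, TRAV13N-2 and TRAV13N-3 were found in WT replicate 2 alone with 2 clonotypes each, and the other members overlapped.

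Leaving out either *Tet2/3* DKO library or WT replicate 1 left 0 families called, as did DESeq2. The log2 fold changes without 1 library stayed between 0.18 and 0.20 for TRAV12, between 0.26 and 0.37 for TRAV16 and between −0.28 and −0.20 for TRAV13. In clonotypes of at least 2 reads they were 0.16 for TRAV12, 0.18 for TRAV16 and −0.10 for TRAV13, with edgeR adjusted p = 0.394, 0.471 and 0.582, and with TMM TRAV13 was no longer called (edgeR adjusted p = 0.0626).

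**Figure D5:**
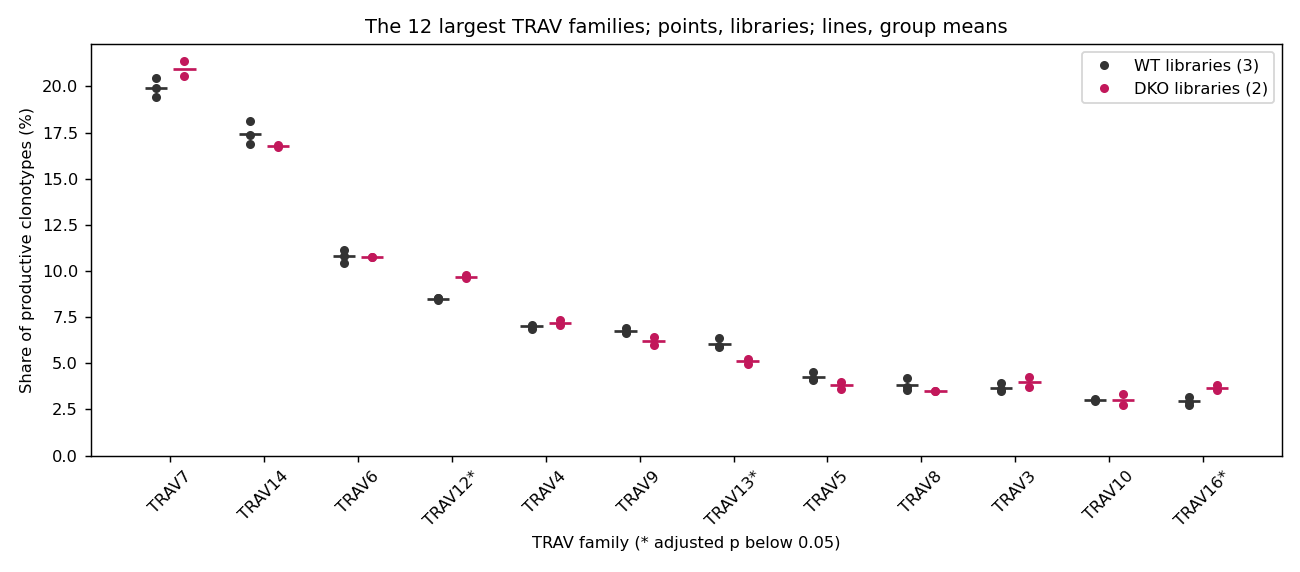
Share of productive clonotypes (%) of the 12 largest TRAV families, with points for the 3 WT and 2 *Tet2/3* DKO libraries and lines for group means. Stars mark TRAV12, TRAV13 and TRAV16, in which the points of the genotypes do not overlap.

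Among the largest families, TRAV7 held 20.5%, 19.4% and 19.9% in WT and 21.4% and 20.5% in *Tet2/3* DKO (edgeR adjusted p = 0.0509). TRAV14 held 17.4%, 16.9% and 18.1% in WT and 16.7% and 16.8% in *Tet2/3* DKO (edgeR adjusted p = 0.199). TRAV6 was at 10.8% in both genotypes, with a log2 fold change of 0.00 and a 95% interval from −0.09 to 0.09. TRAV4 was at 6.997% ± 0.10 and 7.21% ± 0.21, and TRAV9 at 6.77% ± 0.14 and 6.21% ± 0.30 (SD, n = 3 and 2), and neither passed the test.

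TRAV11, the family of the invariant iNKT receptor, was found in 39, 22 and 29 WT clonotypes and 21 and 15 *Tet2/3* DKO clonotypes. Its join to TRAJ18, which makes that receptor, was found in 3, 2 and 2 WT and in 3 and 1 *Tet2/3* DKO clonotypes, at most 0.0531% of a library (95% Wilson interval 0.0181% to 0.156%). TRAV1, the family of MAIT cells and the farthest segment, was at 0.614%, 0.431% and 0.489% in WT and at 0.584% and 0.282% in *Tet2/3* DKO. Its join to TRAJ33 was found in 2, 2 and 1 WT clonotypes and in 0 of 5648 and 0 of 3548 *Tet2/3* DKO clonotypes, which allow a share of up to 0.0531% and 0.0846% (3 clonotypes of the total), with 95% Wilson upper bounds of 0.0680% and 0.108%. *Zbtb16*, the transcription factor of iNKT and MAIT cells, rose in *Tet2/3* DKO libraries from 1.25, 0.548 and 0.879 CPM to 11.8 and 14.1 CPM (edgeR adjusted p = 8.59e-05). Of the 10 markers of other cell types fixed for these cells, 9 could be tested. *Zbtb16* and *Ncr1* passed as higher and *Cd8b1* as lower, while 3.92% of all 13525 genes tested passed, 327 as higher and 203 as lower. The summed level of the 10 markers was 104 to 115 CPM in WT and 96.1 and 147 CPM in *Tet2/3* DKO libraries, and *Ncr1* was at 0 in 2 WT libraries. *Cd8b1* made up most of the WT sum, and without it the other markers summed to 37.2, 38.0 and 43.0 CPM in WT against 67.9 and 119.8 CPM in *Tet2/3* DKO, both above all WT libraries. *Lyz2*, a gene of myeloid cells, was at 10.9, 10.4 and 5.86 CPM in WT against 18.3 and 42.3 CPM in *Tet2/3* DKO (edgeR adjusted p = 0.0143, above the threshold of 0.01). The part of these markers in the usage of TRAV segments was not tested.

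TRAV23, the nearest segment, was found in 1 clonotype, in *Tet2/3* DKO replicate 2. Shannon evenness of usage at equal numbers of clonotypes overlapped between genotypes, at 0.868 in WT and 0.870 in *Tet2/3* DKO on average. Segments also named DV, which can serve in the delta chain, were used in 9.77%, 10.3% and 10.4% of WT and 10.01% and 11.01% of *Tet2/3* DKO TRAV clonotypes, with overlap. The 5 annotated pseudogenes held 0.485%, 0.661% and 0.537% of WT TRAV clonotypes and 0.590% and 0.710% of *Tet2/3* DKO clonotypes, and these overlapped too.

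When each clonotype was weighted by its reads, 0 of 84 V segments were called by edgeR (0%), with 9 at an unadjusted p under 0.05, and DESeq2 called 0 as well. Both *Tet2/3* DKO read shares lay above all WT shares for 7 (8.33%) and below them for 26 (31%). TRAV7N-6 held 37, 33 and 36 reads in WT and 64 and 33 in *Tet2/3* DKO (log2 fold change 0.81, SE 0.19, edgeR adjusted p = 0.258). The 10 largest clonotypes took 1.09%, 1.15% and 1.33% of productive reads in WT and 5.66% and 17.4% in *Tet2/3* DKO. In *Tet2/3* DKO replicate 1 the largest clonotype used TRAV16D-DV11 with 241 reads. In replicate 2 the largest used TRAV21/DV12, TRAV10D, TRAV12D-3 and TRAV14N-2 with 246, 196, 181 and 150 reads, while the largest WT clonotype had 32. Without the 10 largest clonotypes of each library 1 segment was called, TRAV7N-6 (log2 fold change 0.95, edgeR adjusted p = 0.0209).

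The counts of reads per gene gave another readout of the same libraries. They leave out reads that map to several places. TRAV7N-6, with up to 48 clonotypes in a library, had 5 gene counts or fewer in each. It could not be tested here, so its call by clonotypes has no support from this readout. Its plain copy TRAV7-6 had from 48 to 130 gene counts per library. Why TRAV7N-6 had so few was not tested. Of the 102 Trav genes 66 could be tested, and 0 passed the adjusted p of 0.01 with edgeR, against 3.92% of all 13525 genes tested. An unadjusted p under 0.05 was found for 14 of the 66, 3 higher and 11 lower, and for 3112 of all 13525 genes, a similar share. DESeq2 called 2 of the 66, TRAV3-3 and TRAV9-4, as lower, and its calls over all genes were not counted. The log2 fold change was below 0 for 29 of the 34 Trav genes tested among the plain copies and 3′ segments, with a median of −0.33, beside a median of 0.01 over all genes. The medians were −0.16 for 11 N copies, −0.24 for 14 D copies and 0.10 for the 7 segments of the 5′ end.

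Plain copies and 3′ segments took 68.5%, 69.5% and 69.1% of the reads on Trav genes in WT and 64.5% and 67.7% in *Tet2/3* DKO, without overlap. For Trav13-2 the gene counts were 114, 110 and 120 for WT against 71 and 39 for *Tet2/3* DKO (log2 fold change −0.66, SE 0.28, edgeR adjusted p = 0.191). For Trav8-1 they were 253, 201 and 279 for WT against 157 and 109 for *Tet2/3* DKO (log2 fold change −0.48, SE 0.20, edgeR adjusted p = 0.195). In CPM, and as shares of all gene counts, both were lower in each *Tet2/3* DKO library than in all WT libraries. Neither passed the test, and by such shares 19.5% of all 13525 genes tested were lower in the same way.

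*Rag1* and *Rag2* encode the recombinase that cuts the segments, which acts before the CD4 SP stage. *Rag1* had 0 counts in every library and *Rag2* 1 count in WT replicate 2. Of a list of 16 genes of recombination and of the locus 14 were tested, and edgeR called 0 at 0.01, against 3.92% of all genes. An unadjusted p under 0.05 was found for 4 of the 14, and for 3112 of all 13525 genes tested. *Dclre1c*, which encodes Artemis, the nuclease that opens hairpin ends, was at 20.2, 18.1 and 16.5 CPM in WT and at 28.0 and 29.2 CPM in *Tet2/3* DKO (log2 fold change 0.67, SE 0.14, edgeR adjusted p = 0.0155). DESeq2 called this 1 gene (adjusted p = 0.000481). *Dntt*, which adds bases at the joins, was at 17.3, 23.6 and 19.3 CPM in WT and at 13.4 and 14.1 CPM in *Tet2/3* DKO (log2 fold change −0.53, SE 0.18, edgeR adjusted p = 0.106). *Trac*, the constant region, was at 2675, 2428 and 2707 CPM in WT and at 2717 and 2195 CPM in *Tet2/3* DKO, with overlap.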

How the data were processed

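RNA-seq libraries of sorted CD4 SP thymocytes from 3 WT and 2 *Tet2/3* DKO mice were used. Per the labels and the paper's methods, the authors trimmed reads with fastp 0.21.0, aligned them with STAR 2.7.5a to mm10 (GRCm38) and deposited counts of reads per gene, which were used without regard to strand. The authors also deposited, for each TRA clonotype, the count of its reads, the fraction of the library's TRA reads and the V segments with their scores. The tool behind these tables is not given in the sources used here, and the fraction served only as a check. TRB tables were not used here. Groups follow the sample labels.

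Clonotypes per segment and per family, reads per segment and gene counts were tested with edgeR 4.0.16 in R 4.3.3 (quasi-likelihood test, filterByExpr, Benjamini-Hochberg adjustment, thresholds 0.05 and, for genes, 0.01). Totals of productive clonotypes or reads were the library sizes, and TMM was used for genes. The SE was taken as |log2 fold change|/√F from the quasi-likelihood F statistic. Single values per library were compared with exact permutation tests (SciPy 1.17.1, two-sided, absolute difference of means). Positions and germline sequences came from GENCODE M21, in which all 102 segments were found. Evenness was averaged over 100 draws. Alternatives changed normalization, tool, filter, threshold, handling of tied V scores, clonotypes entered, replicate block or libraries. The tests were tried on simulated counts.

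The members and lists were chosen with earlier results of these data known. By the rule, named segments are those called, with their Trav genes, the 6 most used in WT and the 2 ends of the locus, and named families are those called, the 5 largest in WT, TRAV1, TRAV9, TRAV11, TRAV12 and TRAV14. Other segments, members of called families included, are named where a statement turns on them, and were chosen after their values were seen. With 3548 to 6948 productive clonotypes per library, 3 clonotypes are 0.0432% to 0.0846%. Reads carry no molecular identifiers, so the Wilson intervals and floors cover counting error alone. The edgeR intervals rest on the spread fitted between libraries, which was small for clonotypes. The SE of TRAV12 and the interval of TRAV6 are tighter than counting error alone would give. Reads on no gene were left out, from 2.69% to 3.39% unmapped, 7.88% to 8.20% mapped to several places, 3.51% to 5.70% on no annotated gene and 6.47% to 6.73% on several genes.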

Additional observations from a re-analysis of the deposited data

Results flagged for a closer look

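Trav16, the plain copy of the TRAV16 family and an annotated V gene, was the first or a tied V segment of no clonotype in any library, while its gene count was 201, 157 and 193 for WT against 106 and 97 for *Tet2/3* DKO (log2 fold change −0.45, SE 0.21, edgeR adjusted p = 0.241). It was looked at because it shows signal in the gene counts that the clonotype comparisons do not hold. TRDV segments, which are no members, took 0.599% to 0.907% of productive clonotypes in the TRA tables and entered the shares only through the totals.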

How the results depend on the processing

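The counts of calls depended on the processing more than the directions did. Of the segments, 3 in the main test, DESeq2 called 0, the threshold of 0.01 left 1, clonotypes with 1 best V segment gave 1, clonotypes of at least 2 reads gave 1 (TRAV7-2), and leaving out a library gave 0 to 4. Of the families, 3 in the main test, DESeq2 called 0, the threshold of 0.01 left 1, clonotypes of at least 2 reads gave 0, and leaving out a library gave 0 to 4. Of the segments by reads, 0 in the main test, 1 was called without the 10 largest clonotypes and 0 to 13 without a library. Of the Trav genes, 0 in the main test, DESeq2 called 2, the threshold of 0.05 called 2, and leaving out a library gave 0 to 4. Of the 3 segments and 3 families called, whose folds were recomputed under the alternatives in which each was tested, TRAV8-1 changed direction, in clonotypes of at least 2 reads, to a log2 fold change of 0.079, and the cause was not tested. TRAV13-2 did not pass the filter on low counts there. Among clonotypes with 1 best V segment, TRAV12-1 went from 0.01 to −0.70 and TRAV12-3 from 0.19 to −0.02, none of them called.

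The replicate block raised the segments called to 9, which included the 3 named, gave 4 families, the 3 named among them, 3 segments by reads and 0 Trav genes. The same-numbered libraries are different mice, and only 2 pairs share a number. Their deviations from the group means correlated at 0.141 and 0.222, and those of the crossed libraries at −0.141 and −0.222, values that mirror each other because only 2 *Tet2/3* DKO libraries share a mean, so this check says nothing about pairing. The shares of the 3 stretches of the locus, the mean rank, the mean TRAJ numbers and the shares of placed clonotypes kept their direction under every alternative run. In clonotypes of at least 2 reads the differences in percentage points were 0.829 for N copies against 3.78, 0.451 for D copies against 1.22, −1.38 for plain copies against −4.97 and 0.134 for the middle stretch against 1.54. The difference of the farthest stretch, 0.744, ran from 0.112 with 1 best V segment to 2.84 by reads, and was 0.413 without WT replicate 2. With 1 best V segment the nearest stretch went from −2.28 to −3.72, and its mean TRAJ difference from −2.28 to −1.16 and that of the farthest from −2.39 to −1.32. The share difference of the middle stretch reached 3.61 with 1 best V segment and was 0.697 by reads, and that of D copies was 4.62 by reads and 0.778 without *Tet2/3* DKO replicate 2. TMM gave 3 families, all higher, against 2 higher and 1 lower. The alternatives for placed clonotypes, and the split of tied hits and the block for the stretches, and also the marker sum without *Cd8b1*, were added after seeing the data. With 3 against 2 libraries no single value could pass 0.05.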

Other observations

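TRAV14N-2 stood apart in reads per clonotype. Its 50 WT clonotypes held 286 reads, or 5.72 reads each, while the median over the 77 segments with at least 30 WT clonotypes was 1.36 and the next highest, TRAV14N-1, was at 2.11. None of the 64 TRAV14N-2 clonotypes of the 5 libraries rested on 1 read, whereas this was so of 45.5% of the clonotypes of TRAV14N-1 and 56.9% of those of TRAV14N-3. The mean was 4.90, 4.75 and 7.41 reads for WT against 4.91 and 51.7 for *Tet2/3* DKO, the last with 3 clonotypes, of which 1 had 150 reads. It was chosen after the values were seen, and no explanation was tested.

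Of the 128 annotated Trav genes, 26 were the first V segment of no clonotype. Of these 13 appeared only in ties, 12 were pseudogenes outside any tie, and the remaining 1 was Trav16.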
